A study of Rattus norvegicus with 8 samples.

Results

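The genes described here were the fibrinogen chains Fga, Fgb and Fgg, the kininogen Kng1, and the acute-phase plasma proteins Hp (haptoglobin), Cp (ceruloplasmin), Crp (C-reactive protein) and A2m (alpha-2-macroglobulin). They were chosen by their tumor and normal lung signals: Fgg read higher in rat lung tumor, whereas other genes typical of liver read lower. Their own lung values are therefore a description, and no test of them is given. The Arraystar rat lncRNA array, a 1-colour Agilent array that also measures mRNAs, held 24684 probes besides its control spots. Of these, 9 probes matched a RefSeq transcript of the 8 genes, 2 for Fga and 1 for each of the others, among 13888 genes named by mRNA probes.

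All RNA came from male F344 rats, an inbred strain, at week 95. The lung tumors (n = 3) and the matched normal lung tissues (n = 3) came from NNK-treated rats, NNK being a lung carcinogen found in tobacco smoke, so the normal lung was NNK-exposed as well. The study's methods describe the tumors as moderately differentiated adenocarcinoma. Control blood (n = 1) and NNK blood (n = 1) were clots of whole blood from an untreated and an NNK-treated rat. For the NNK blood sample, 1 label field gives the text of a tumor sample, but the remaining fields name a clot, and it was used as blood.

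The values below are log2 of the background-subtracted signal, quantile-normalized over the 6 lung arrays or over the 2 blood arrays. Each array held 42136 spots, of which 49.9% to 63.3% were well above background, and on an array the number of arrays, not depth, limits the precision. The 3 normal lung arrays differed from each other by 0.81 to 1.41 times the spot noise, and lung tumors 2 and 3 by 0.602 times, against 6.52 and 6.91 times between tumor 1 and these. As a precaution the normal lung arrays were counted as 1 sample, and tumors 2 and 3 as 1, in each mean ± SD. The p-values below treat the 6 lung arrays as separate, so they measure only the spread between arrays, which may be technical. The scanner software marked some spots as outliers, either non-uniform or population outliers. Such spots made up 15.93% to 25.28% of the bright spots on the tumor arrays and 4.92% to 8.62% on the normal arrays. The normal arrays and tumor 1 shared a scan, and tumors 2 and 3 were in another.

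Fibrinogen is secreted mainly by hepatocytes as a dimer of paired alpha, beta and gamma chains, which thrombin turns into fibrin. Kininogens are liver-made cysteine protease inhibitors from which kallikreins release bradykinin. In the acute-phase response, interleukin 6 acting through STAT3, with C/EBP proteins, raises the hepatic output of fibrinogen, haptoglobin and, in the rat, alpha-2-macroglobulin and a kininogen, while albumin and transthyretin decline. Lung epithelium can also make fibrinogen chains during inflammation.

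The sequences before the start sites of the fibrinogen and kininogen genes are shown because fibrinogen chains that are usually regulated together differed in direction here, while kininogens differed in parallel. They are from RefSeq, assembly GRCr8, 250 bases each, on the gene's strand, with matches to CTGGGAA, the core of the type 2 IL-6 response element, in capitals. The windows are chr2:170652833-170653082 (plus strand) for Fgg, chr2:170671919-170672168 (plus strand) for Fga, chr2:170700876-170701125 (minus strand) for Fgb, chr11:91340149-91340398 (minus strand) for Kng1 and chr11:91483169-91483418 (plus strand) for its relative Kng2l1. The last 154 bases of the Fgg window lie inside the annotated span of that gene, which has another start.
Fgg: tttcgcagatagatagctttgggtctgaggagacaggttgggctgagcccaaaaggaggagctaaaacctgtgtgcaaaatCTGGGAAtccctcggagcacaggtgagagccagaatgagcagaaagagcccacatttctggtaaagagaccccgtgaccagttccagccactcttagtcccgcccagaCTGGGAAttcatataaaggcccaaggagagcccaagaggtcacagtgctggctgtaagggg
Fga: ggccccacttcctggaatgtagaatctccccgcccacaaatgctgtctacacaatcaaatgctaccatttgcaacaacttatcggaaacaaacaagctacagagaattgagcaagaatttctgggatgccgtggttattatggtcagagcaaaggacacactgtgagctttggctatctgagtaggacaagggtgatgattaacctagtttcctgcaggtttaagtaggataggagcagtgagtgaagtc
Fgb: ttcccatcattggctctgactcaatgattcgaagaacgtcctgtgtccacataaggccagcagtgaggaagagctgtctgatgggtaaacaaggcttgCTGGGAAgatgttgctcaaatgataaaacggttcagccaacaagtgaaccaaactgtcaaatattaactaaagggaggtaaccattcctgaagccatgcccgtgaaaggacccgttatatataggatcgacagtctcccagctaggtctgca
Kng1: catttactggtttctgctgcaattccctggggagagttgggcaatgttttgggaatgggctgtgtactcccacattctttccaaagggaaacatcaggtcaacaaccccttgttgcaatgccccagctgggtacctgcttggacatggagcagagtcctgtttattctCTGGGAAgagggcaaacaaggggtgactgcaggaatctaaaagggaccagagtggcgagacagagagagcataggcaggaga
Kng2l1: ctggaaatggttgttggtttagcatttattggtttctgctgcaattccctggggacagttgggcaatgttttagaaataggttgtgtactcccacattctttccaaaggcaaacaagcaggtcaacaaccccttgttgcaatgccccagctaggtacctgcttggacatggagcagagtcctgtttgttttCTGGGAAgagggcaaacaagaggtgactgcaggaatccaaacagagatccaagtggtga

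CTGGGAA or its reverse complement TTCCCAG was found in 9.56% of the 33469 windows of the table. The Fgg window held 2 matches, starting 169 and 61 bases before the start site, and the Fgb window 1 match at 152 bases. No match was found in the Fga window. Kng1 had 1 match at 82 bases and Kng2l1 had 1 at 59 bases. The window of the other kininogen, Kng2, which is not printed, had 0. That window ends before the stretch that would hold the Kng1 match, so this 0 does not show that Kng2 lacks the letters. The Kng2l1 match overlaps a match to the STAT palindrome TTCNNNGAA, which was in 7.67% of all windows. That palindrome was also in the Fga window at 242 bases and the Fgb window at 223 bases, and not in those of Fgg, Kng1 and Kng2. GTTAAT, or ATTAAC on the other strand, letters shared with sites of the liver factor HNF1, was in 6.45% of all windows, at 52 bases in Fga and 90 bases in Fgb, and it was not in the Fgg window. TATAAA, or TTTATA, in 12.93% of all windows, was 50 bases before the Fgg start. The Cp window held 2 such matches, at 29 and 27 bases. TTNNGCAA, or TTGCNNAA, letters of the C/EBP core, was in 9.22% of all windows, at 144 bases in Fga, 141 in Fgb, 214 in Kng1, 59 in Kng2, 192 in Kng2l1 and 72 in Cp, and not in the Fgg and Crp windows. All 250 bases of the Cp window lie inside the annotated span of that gene. In a local alignment the Kng1 and Kng2l1 windows shared 210 of 225 aligned bases (93.3%). Those of Kng1 and Kng2 shared 94 of 95 (98.9%), and the C/EBP letters of both lie in that shared stretch. Fga and Kng2l1 each had a further window from another start, which is not printed. That of Fga held no CTGGGAA and no STAT palindrome, with the C/EBP letters at 162 bases and the HNF1 letters at 70. That of Kng2l1 held CTGGGAA at 158 bases and the palindrome at 160, with no C/EBP match. A match of these letters describes the sequence and is not a measured site. Windows for Cp and Crp held no CTGGGAA.

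The fibrinogen chains diverged in lung. The gamma chain gene Fgg (NM_012559) had log2 signals of 15.41, 15.42 and 15.47 in normal lung and of 16.25, 16.12 and 16.16 in tumor. Every tumor value lay above every normal value, and the difference was 0.75 (1.68-fold, no test), with a tumor mean of 16.2 ± 0.079 (SD, n = 2). Within the scan that held both tissues, tumor 1 exceeded the normal mean by 0.82. The alpha chain gene Fga (NM_052797), whose protein carries fibrinopeptide A, read 9.35, 9.33 and 9.34 in normal lung and 4.55, 4.50 and 4.05 in tumor. All tumors were lower, by 4.97 on the log2 scale or 31.4-fold, with a tumor mean of 4.41 ± 0.19 (SD, n = 2). The Fga difference came to -3.03 with the normexp background correction.

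The second Fga probe (NM_001008724) was not well above background on any of the 8 arrays, so it gives no second reading of this gene. The beta chain gene Fgb (NM_020071) read 10.62, 10.49 and 10.56 in normal lung and 6.44, 8.07 and 8.18 in tumor. All tumors were again lower, by 2.99 on the log2 scale (7.96-fold), but tumor 1 lay well under the other two, and the tumor mean was 7.28 ± 1.2 (SD, n = 2). Against the normal mean, tumor 1 alone was at -4.12, and without it the difference was -2.43. Thus Fgg was higher and its partner chains lower on each of the 3 tumor arrays.

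**Figure D1:**
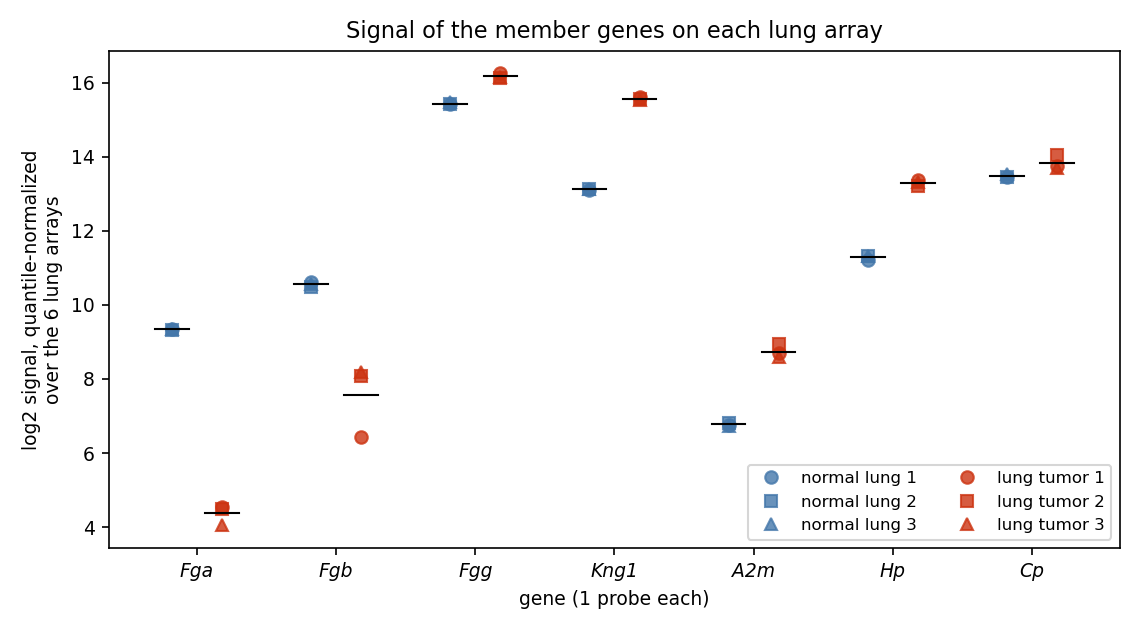
Log2 signal of the 7 probes above background, on each of the 3 normal lung (blue) and 3 lung tumor (red) arrays, with a line at each group mean and the replicate as the marker shape. Fga and Fgb lie lower in tumor, and Fgg, Kng1, A2m and Hp lie higher, with no overlap between the groups.

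The 3 chains are neighbours on chromosome 2. In the order of the GRCr8 annotation, the protein-coding genes run Lrat, Fgg, Fga, Fgb, Plrg1. On the same log2 scale the tumor minus normal difference was -1.24 for Lrat, a retinol acyltransferase, and 0.10 for Plrg1, a splicing factor. Genes on either side of the fibrinogen cluster thus differed from Fgg and from each other.

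Hepatocyte markers, the class to which the choice of members referred, were low in tumor beside Fga and Fgb. As that choice rested on their values, they are described without a test. Of 26 markers 24 were on the array and 19 passed the filter, and 15 of these were at least 2-fold lower in tumor, with a median of -3.41 over the 19. Their summed signal ran from 85700 to 88300 in normal lung and from 7980 to 9890 in tumor. Among these markers, Tat, Hpd and Cyp1a2 did not exceed background on the lung arrays. Cyp2e1, Cyp2c11, Tdo2, Baat, Slco1b2 and Ugt2b1 were well above background on all 3 normal lung arrays. Cps1, Bhmt, Hnf4a and Fah differed by less than a fold of 2. Albumin (Alb) read 13.84, 13.85 and 13.89 in normal lung and 9.21, 10.96 and 11.16 in tumor, so tumor 1 was lowest for Alb as it was for Fgb. The part of hepatocyte RNA in the fibrinogen values was not tested, and in whole tissue fewer cells of a type and less RNA per cell cannot be told apart.

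Kininogen signal was higher in tumor in each of its probes. The probe of Kng1 (NM_001009628), the precursor of bradykinin, read 13.11, 13.12 and 13.14 in normal lung and 15.60, 15.57 and 15.54 in tumor. The difference was 2.45 (5.46-fold, no test), with a tumor mean of 15.58 ± 0.034 (SD, n = 2). Its spots on tumors 2 and 3 carried outlier marks, so the probe was not in the fit and the values are given with these spots kept. Tumor 1, which had no mark, was 2.48 above the normal mean.

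The relatives Kng2 and Kng2l1 are not members, and their probes gave nearly the same difference. Kng2 (NM_012696) read 12.94, 12.93 and 12.86 in normal lung and 15.36, 15.38 and 15.45 in tumor, a difference of 2.49. For Kng2l1 the differences were 2.60 (NM_001102418) and 2.30 (NM_012741). Rat kininogen genes are near-identical copies, and cross-hybridization among their probes, whose sequences were not used here, was not tested. The 4 probes may therefore read partly the same RNA.

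In chromosome order the kininogens are followed by Hrg, Fetub and Ahsg, which belong to the same cystatin superfamily. Hrg (histidine-rich glycoprotein) was lower in tumor by at least 46.9-fold, since no tumor array was well above background. Fetub (fetuin B) was higher by 1.63 on the log2 scale, and Ahsg (fetuin A) was lower, at -4.20. On the other side of Kng1, Eif4a2 was at -0.15. This stretch of liver-expressed genes therefore held both signs.

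A2m (NM_012488), a broad protease trap and a strong acute-phase protein of the rat, read 6.76, 6.80 and 6.74 in normal lung and 8.69, 8.93 and 8.60 in tumor. All tumors exceeded all normal values, by 1.97 (3.92-fold), with a tumor mean of 8.72 ± 0.053 (SD, n = 2). Its relatives went the other way. Pzp, another macroglobulin, was at -2.22, and Mug1 (murinoglobulin, an inhibitor that declines in inflammation) read 9.63, 9.60 and 9.66 in normal lung and 3.53, 3.63 and 2.81 in tumor. Mug1l1, the next protein-coding gene after A2m, was at -4.95. Mug1 was well above background on 1 of 3 tumor arrays, so its low level there is imprecise.

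Hp (NM_012582), which binds free haemoglobin, read 11.22, 11.31 and 11.33 in normal lung and 13.38, 13.22 and 13.31 in tumor. The groups did not overlap and differed by 2.02 (4.04-fold), with a tumor mean of 13.32 ± 0.084 (SD, n = 2). All 3 tumor spots carried outlier marks, so this value rests on marked spots. Txnl4b and Dhodh, the protein-coding genes on either side of Hp, were at -0.06 and 0.74.

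Cp (NM_012532), a copper-carrying ferroxidase, read 13.45, 13.45 and 13.52 in normal lung and 13.76, 14.04 and 13.69 in tumor. Its groups did not overlap, yet the difference was only 0.36 (1.28-fold), and 2 of the 3 tumor spots were marked. With the 75th percentile shift in place of quantile normalization it was 0.14.

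Crp (NM_017096), the pentraxin that gives its name to a clinical inflammation test, was not well above background on any of the 8 arrays. Its values of 3.23, 1.43 and 3.29 in normal lung and 1.32, 1.34 and 1.79 in tumor carry no order. The pentraxin next to it on chromosome 13, Apcs (serum amyloid P), was lower in tumor by at least 8.17-fold.

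Over the members, 7 of 9 probes passed the filter on dim probes and 4 of them entered the fit. At least 2-fold higher were 3 probes, where 14.8% of the 15803 probes past the filter were, and at least 2-fold lower were 2, where 15.4% were (30.2% in either direction). By limma with marked spots kept, 13.5% of the same probes were called higher and 14.4% lower. The groups did not overlap for any of the 7, and they did not for 73% of all probes past the filter. The median difference was 0.75, against 0.06 over all such probes. The choice of genes used this contrast, and nothing is read from these counts.

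**Figure D2:**
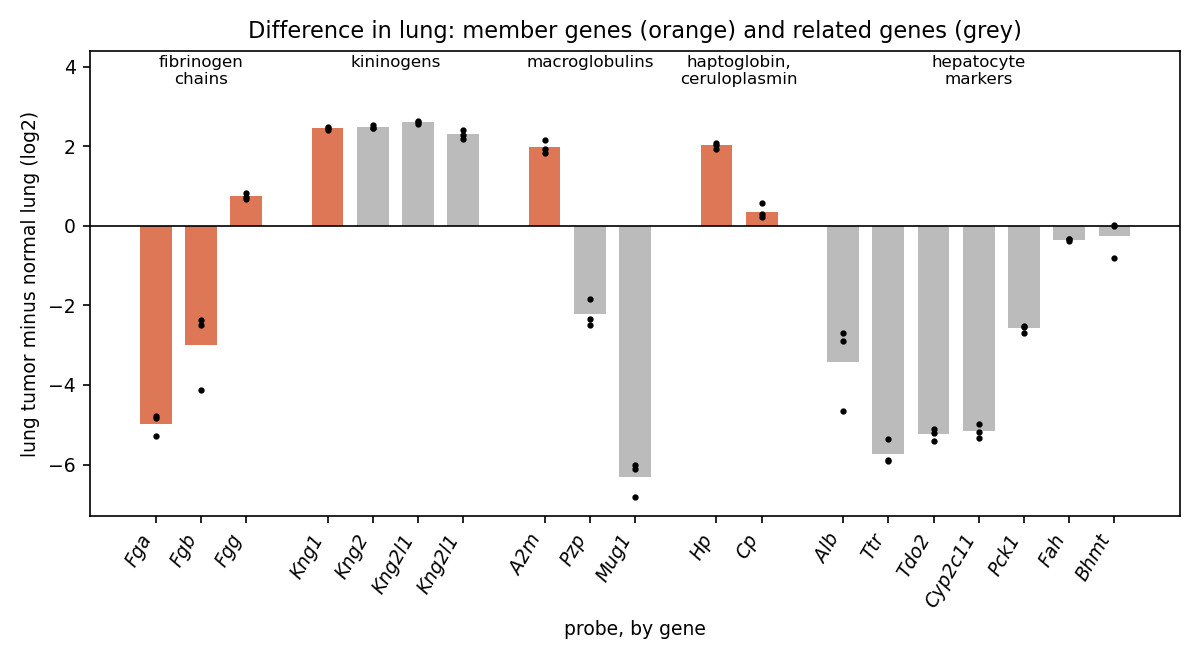
Tumor minus normal log2 difference (bars) of member genes (orange) and of related genes (grey), with a dot for each tumor array minus the normal mean. Kininogen probes stand between 2.30 and 2.60, Fgg differs in sign from its partner chains and A2m from Pzp and Mug1, and Fah and Bhmt lie near 0 among the hepatocyte markers.

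In blood, 3 member probes were well above background on both clots, 2 on 1 of them and 4 on neither. With 1 array per group no test was possible. Hp was the member with the largest difference measured on both clots, at 7.41 in control blood and 9.25 in NNK blood, or 3.58-fold higher. Among 14452 probes compared, 42.2% differed by a fold of 2 or more (23.1% upward in NNK blood and 19.1% downward), so a difference of that size was common. Fga was at 8.26 and 7.50, a difference of -0.76, and Fgb at 7.09 and 7.12, a difference of 0.03.

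Fgg was not well above background in control blood (1.95) and was in NNK blood (5.62), which makes it at least 2.51-fold higher. The measured Fgg difference of 3.67 came to 0.66 with the normexp background correction, and it has no replicate check. Cp was well above background only in NNK blood (4.29), with a bound of 1.00-fold, which sets no difference. Kng1, A2m, Crp and the second Fga probe were not well above background in blood. The hepatocyte markers measured there (16, of which 11 were well above background on both clots) were at least 2-fold higher for 1 and lower for 6. Albumin read 7.88 in control and 5.99 in NNK blood.

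The order of the tissues was read after quantile normalization of all 8 arrays together. Blood arrays were dimmer before scaling, with a 75th percentile of the signal of 95.4 and 206 against 1191 to 1329 in lung, so distances between blood and lung depend on that step. Fga was highest in control blood (11.20), then NNK blood (10.14), normal lung (8.66 to 8.67) and tumor (3.95 to 4.42). Fgb was at 9.68 to 9.79 in normal lung, 9.49 in NNK blood and 9.44 in control blood, closer together than tumor values are to each other, and at 6.14 to 7.66 in tumor. Fgg had another order, with tumor at 15.53 to 15.69, normal lung at 14.65 to 14.73, NNK blood at 6.77 and control blood not above background. On each probe's own scale, Fga and Fgb were therefore both lowest in tumor and Fgg was highest there. The chains shared no full ranking of the tissues.

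Hp in NNK blood (12.25) lay within the range of the tumors (12.22 to 12.38), above normal lung (10.32 to 10.42) and control blood (9.97). Kng1 was at 14.82 to 14.90 in tumor and 12.11 to 12.13 in normal lung, and A2m at 8.02 to 8.31 and 6.40 to 6.46, with both clots not above background. Cp was far higher in both lung tissues than in blood, at 12.70 to 13.07 in tumor, 12.44 to 12.52 in normal lung and 4.73 in NNK blood.

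**Figure D3:**
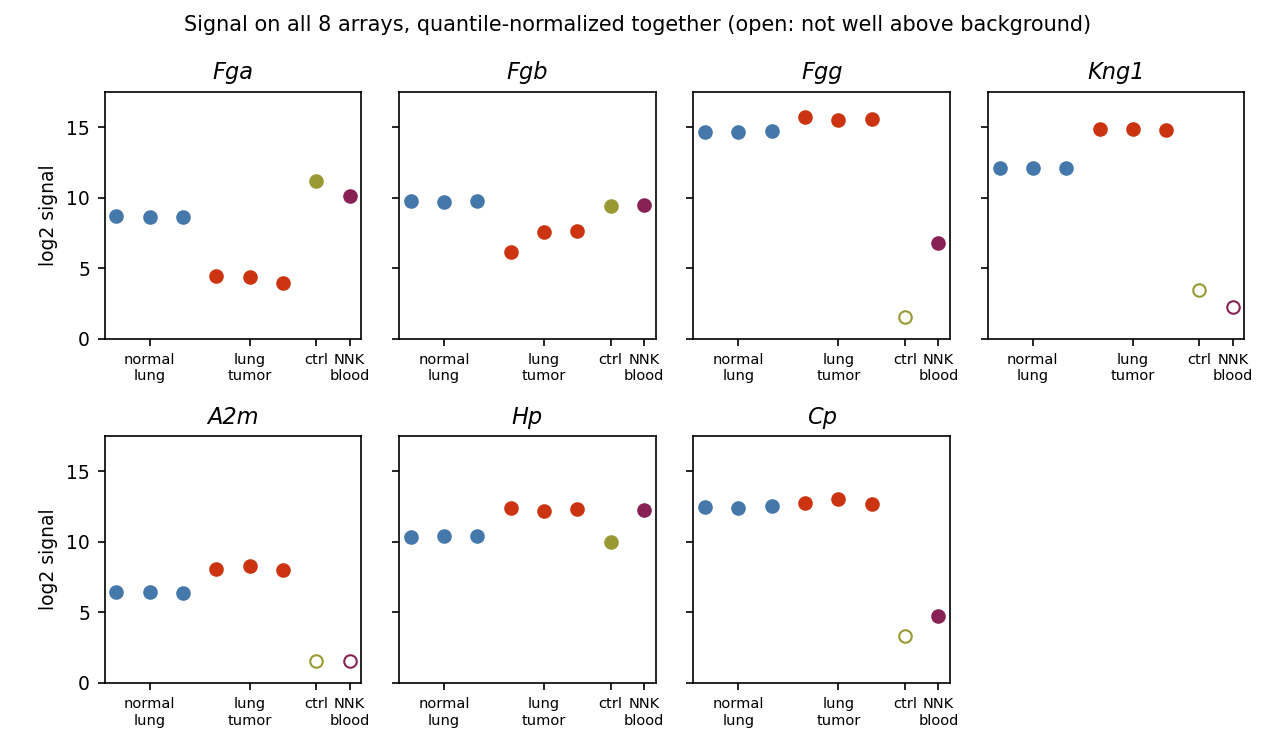
Log2 signal of 7 member probes on all 8 arrays after joint quantile normalization, by tissue, with ctrl for control blood and open circles for blood values not well above background. Fga is highest in blood and lowest in tumor, while Fgg and Kng1 are highest in tumor and lowest in blood.

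Probes with the most similar profile over the 8 arrays were searched among 11169 probes, by the root mean squared difference of centred log2 signals. For Fgg the nearest were Il33 (0.481), an epithelial alarmin, and Krt8 (0.491), a keratin of simple epithelia. For Kng1 they were Areg (0.321), an EGF receptor ligand, Egfl6 (0.328) and Cfi (0.344), complement factor I. Hp was closest to Trip12 (0.148), A2m to Hmmr (0.190) and Cp to Oat (0.198). Obp3 (0.247) was among the nearest to Fga, and Cyp2d3 (0.326) was nearest to Fgb. No member was among the nearest 3 of another member. The 8 arrays fall into 4 tissue groups, and the measure is a description of these arrays.

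The wider pathways were described in 12 lists without the members, with 225 genes, of which 187 were on the array, 159 passed the filter and 128 were tested. With a call defined as a fold of at least 2 and an adjusted p (limma, Benjamini-Hochberg over 12471 probes) of at most 0.05, 17 genes were higher and 28 lower, and 11 and 19 where near-identical arrays were counted once. Over all probes tested, 29% were called, 13.5% higher and 15.5% lower. A gene well above background in only 1 tissue passed the filter through that tissue, as Cebpa, Foxa3 and Atp7b did through tumor. Of the 28 genes lower, 14 are made mainly in liver, the class the choice of members rested on, and 2 of those higher are kininogens whose probes may share signal with that of Kng1. The counts for the lists therefore restate that choice in part and are a description, not set against the share over all probes. No p is given for these liver-made genes, for Lbp, which is also made mainly in liver, or for the kininogens.

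**Figure D4:**
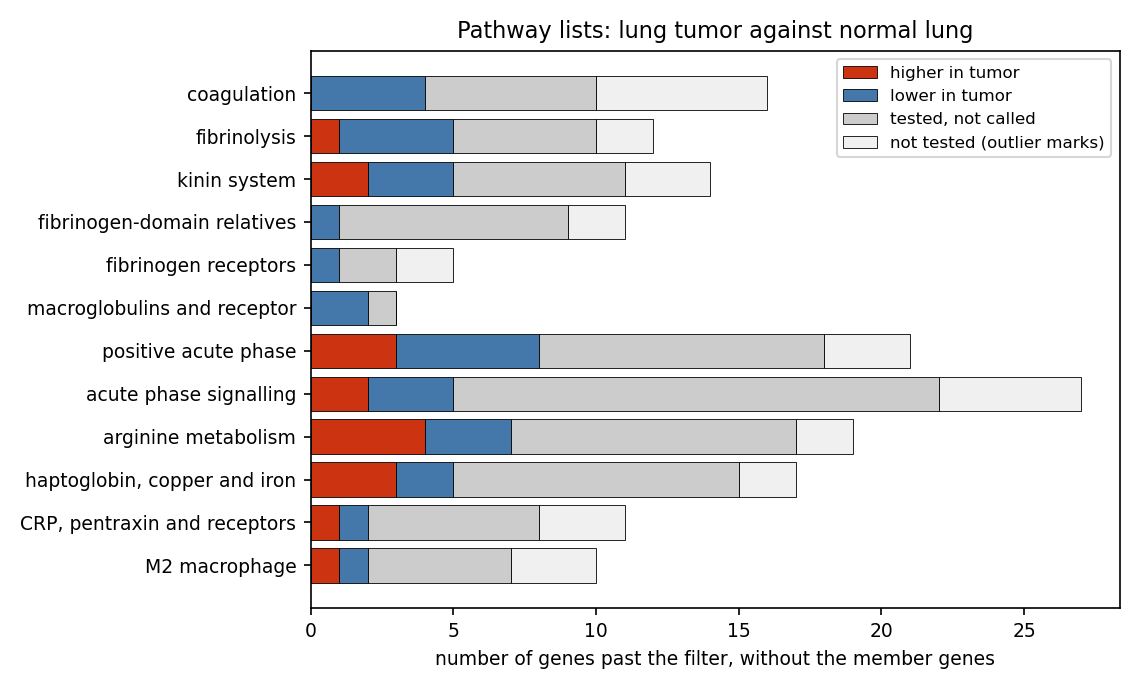
Number of genes past the filter in each of the 12 pathway lists (members left out), divided into those higher in tumor, lower in tumor, tested and not called, and not tested because of outlier marks. Arginine metabolism has the most genes called higher (4) and positive acute phase the most called lower (5, all liver-made).

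Among 10 coagulation genes in the fit, 4 were lower, 3 of them liver-made. Of those not called, the inhibitor Tfpi was at 0.62 and Vkorc1, which recycles vitamin K, at 0.96. Tfpi2, a related inhibitor, was at -1.17 (SE 0.14, limma adjusted p = 0.000995). It was not called in 6 of 20 alternatives, among them near-identical arrays counted once (-1.1). The Tfpi2 difference was -0.99 with the 75th percentile shift, -0.84 with normexp, -0.94 with the authors' log2 values and -0.91 with scan as a block. The liver-made Serpinc1 (antithrombin) and F2 (prothrombin) were at -5.46 and -1.53, and F12 (factor XII) was at least 7.16-fold lower. With outlier-marked spots kept, 2 genes were called higher and 6 lower. Tissue factor (F3), the trigger of coagulation, was then at 1.24 and thrombomodulin (Thbd), an endothelial anticoagulant, at -2.51.

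In fibrinolysis 1 of 10 genes in the fit was higher and 4 lower, 3 of them liver-made. Serpinb2, an intracellular serpin that can inhibit urokinase, was at -2.33 (SE 0.23, limma adjusted p = 0.000482), and at -0.75, under the fold of 2, with the normexp background correction. The activator Plau and its receptor Plaur were at -0.05 and 0.05. Of the liver-made genes, plasminogen (Plg) was at -1.02 and Cpb2, the thrombin-activatable inhibitor, at -1.74. Plg went to -0.99, under the fold of 2, without normal lung 3, tumor 2 or tumor 3. Over 20 alternatives Plg ran from -1.07 to -0.86, and it was not called in 10 of them.

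In the kinin system 2 of 11 genes in the fit were higher, Kng2 and Kng2l1, and 3 lower, of which F12 is liver-made. Of the enzymes of the list that break down kinins, 2 were called, both lower. Ace, angiotensin-converting enzyme, fell by 3.30 (SE 0.29, limma adjusted p = 0.000282) and Xpnpep2, an aminopeptidase, by 2.41 (SE 0.059, limma adjusted p = 5.42e-06). Ace was not called with near-identical arrays counted once (adjusted p = 0.0568). Mme, neprilysin, was at 0.23, and the carboxypeptidases Cpm and Cpd were at 0.77 and 0.26, all under the fold of 2 and not called. The carboxypeptidase Cpn1, marked on 2 tumor arrays and so not in the fit, was at 0.72 with these spots kept. The inducible receptor Bdkrb1 read 8.54, 6.21 and 6.34 in normal lung and 8.02, 9.40 and 10.26 in tumor, so its groups overlapped (limma adjusted p = 0.0703). Bdkrb2, the constitutive receptor, passed no filter in lung. Endothelial markers, a main source of Ace, moved beside it, with 3 of 4 tested lower and a summed signal of 280000 to 289000 in normal lung and 77700 to 82700 in tumor. Their part in the value of Ace was not tested.

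Of 9 fibrinogen-domain relatives tested, 8 were not called and 1 fell, Angpt2 (angiopoietin 2) at -1.78 (SE 0.097, limma adjusted p = 4.83e-05). Without tumor 1 the count was 3. Fibcd1, a chitin-binding receptor, was at -3.20 and not called (limma adjusted p = 0.0625), with tumor 1 at 6.13 and tumors 2 and 3 at 2.03 and 1.86. Fgl1, a liver-secreted fibrinogen-like protein, was at 0.50, and Fgl2 at 0.01. Of 3 fibrinogen receptors tested, 1 was called lower, the integrin Itga5 at -1.47, which was well above background on 1 tumor array. Itga5 was not called without any 1 of the normal arrays (limma adjusted p = 0.0541 to 0.0676). Over 19 alternatives it ran from -1.81 to -0.24, and it was not called in 9 of them. Of 3 macroglobulins and receptors tested, 2 were lower, Pzp and Mug1, both of the liver-made class.

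In the positive acute phase list 3 of 18 genes in the fit were higher and 5 lower, and all 5 are liver-made, so that count restates the choice of members. Lbp, which presents bacterial lipopolysaccharide, was at 1.44. Il1rn, the interleukin 1 receptor antagonist, rose by 1.27 (SE 0.057, limma adjusted p = 2.47e-05). Il1rn had an adjusted p of 0.051 with near-identical arrays counted once. Spp1 (osteopontin) read 5.44, 7.33 and 7.51 in tumor against 4.39 to 4.52 in normal lung, a difference of 2.31 (limma adjusted p = 0.0162) that ran from 0.99 to 2.97 over the alternatives. Within the scan that held both tissues it was 0.99, and it was not called in 5 of 20 alternatives, among them without tumor 2 (adjusted p = 0.0548) and with near-identical arrays counted once (adjusted p = 0.265). Orm1, Serpina1 and Hamp, classical acute-phase proteins of the liver, were at -2.66, -2.51 and -1.90. C3 was at -0.16 and Hpx, which binds haem, at -0.85. The 9 negative acute phase genes on the array had a median of -3.99. They belong to the class whose low values led to the choice of members, so this restates that choice and is no separate result.

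Of the signalling genes of the acute phase, 3 of 22 tested were lower, and 5 of 27 with marked spots kept. The 2 called higher in either case, Cebpa and Foxa3, passed the filter through the tumor arrays alone. With marked spots kept, Il1a and Il1b were at -2.85 (limma adjusted p = 2.05e-05) and -1.63 (limma adjusted p = 3.64e-05). Of these cytokines, Il1a was marked on 3 normal and 3 tumor arrays, so all its lung values are marked spots. Il1b was marked on 2 tumor arrays. Il6 was at -0.62, Stat3 at -0.22, the feedback inhibitor Socs3 at 0.04 and Cebpb at -0.64, none of them past the fold of 2. Il6r fell by 1.22 (SE 0.056, limma adjusted p = 2.68e-05) and Nfkbia, the NF-kB inhibitor, by 1.28 (SE 0.056, limma adjusted p = 2.27e-05). Il6r had an adjusted p of 0.054 with near-identical arrays counted once. Foxa1 was at -1.16 and was not called under that setting either (adjusted p = 0.149). Cebpa and Foxa3 were not well above background in normal lung, and were at least 2.16-fold and 1.54-fold higher. The bound for Foxa3 is under the fold of 2, and nothing is read from the calls of Cebpa and Foxa3.

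In arginine metabolism 4 of 17 genes in the fit rose and 3 were lower, of which Otc is liver-made. Ass1, which makes the arginine precursor, rose by 2.05 (SE 0.11, limma adjusted p = 5.14e-05), Pycr1, the last step to proline, by 1.85 (SE 0.089, limma adjusted p = 3.19e-05), and Ddah2, which clears inhibitors of nitric oxide synthase, by 1.44 (SE 0.09, limma adjusted p = 7.99e-05) and 1.68 in its 2 probes. The probe at 1.44 had an adjusted p of 0.0504 with near-identical arrays counted once. Ddah1 rose as well, by 1.43. Nos3, the endothelial synthase, fell by 1.93 (SE 0.1, limma adjusted p = 0.000145). Otc, a urea cycle enzyme of liver, was at -1.58. Odc1, which starts polyamine synthesis, was at -2.16 and lost its call without any 1 of 4 of the 6 arrays. Over 19 alternatives Odc1 ran from -2.85 to -0.35, and it was not called in 11 of them. Nos2, the inducible synthase, was not well above background in lung.

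In the list of M2, or alternatively activated, macrophages 1 of 7 tested genes rose and 1 fell. Retnla (Fizz1) rose from 13.32 to 13.49 in normal lung to 17.54 to 17.64 in tumor, a difference of 4.21 (SE 0.068, limma adjusted p = 3.52e-06), while Mrc1 was at 0.36 and Klf4 fell by 2.05 (SE 0.051, limma adjusted p = 5.5e-06). The 8 macrophage markers tested had a median of 0.33, and their summed signal was 433000 to 465000 in normal lung and 517000 to 572000 in tumor. The haptoglobin receptor Cd163, defining for resident macrophages, was not well above background in lung.

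For haptoglobin, copper and iron, 3 of 15 tested genes were called higher and 2 fell. Of the 3, Atp7b passed the filter through the tumor arrays alone, and nothing is read from its call. Hmox1, which degrades haem, rose by 1.17 (SE 0.06, limma adjusted p = 4e-05), and its adjusted p was 0.0572 with near-identical arrays counted once. Atp7b, which loads copper onto ceruloplasmin, was well above background only in tumor and at least 2.09-fold higher. The extracellular dismutase Sod3 fell by 1.85 (SE 0.061, limma adjusted p = 1.07e-05), and Heph, a ferroxidase related to Cp, fell by 1.26 (SE 0.056, limma adjusted p = 2.39e-05), with 0.0507 under that setting. Hfe was at 1.13 (adjusted p = 0.0597 under that setting). Of 8 genes tested in the list of pentraxins and their receptors, 1 rose, the neuronal pentraxin Nptx1, at 1.79 (SE 0.055, limma adjusted p = 8.83e-06), and 1 was lower, Apcs. Ptx3, the pentraxin made in tissues, was at 0.25.

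Other cell types also shifted beside the members. Of the genes tested, 6 of 8 red blood cell markers, 4 of 4 platelet markers, 5 of 8 type 1 alveolar markers, 2 of 4 neutrophil markers and 2 of 10 T cell markers were lower in tumor. The summed signal of the platelet markers was 5210 to 5530 in normal lung and 7790 to 9120 in tumor, opposite to their counts, and that of the neutrophil markers 15000 to 15800 and 3650 to 4470. Club and airway markers were higher for 3 of 4 and type 2 alveolar markers for 1 of 8. Of the markers called higher, Bpifb1 (airway) and Cd79b (B cell) passed the filter through the tumor arrays alone. The platelet markers Ppbp and Gp9, called lower, passed it through the normal arrays alone. B cell markers gave 1 in each direction of 5, smooth muscle and fibroblast markers 1 lower of 4, and proliferation markers 2 higher of 5. Their part in the values of the members was not tested.

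In blood, 115 genes of the 12 lists could be compared, and 35 were at least 2-fold higher and 19 lower in NNK blood, with a median of 0.07 against -0.11 over all probes compared. Among those well above background on both clots, Cebpb was 2.62 higher, the Fc receptor Fcgr3a 2.61, Tnf 2.63 and Il4r 2.66 on the log2 scale. The LIF receptor Lifr was 3.14 lower, Pias3 2.53 lower and Cybrd1 2.45 lower. Of the genes near the members, Hrg was at -1.18, Bdkrb1 at 1.23 and Bdkrb2 at -1.11, and Serpinc1, lower in tumor, was at -0.58. Cell markers differed beside these genes: 4 of 6 neutrophil markers, 7 of 11 T cell markers (median 1.39) and 3 of 5 B cell markers (median 2.06) were at least 2-fold higher in NNK blood, and 4 of 5 platelet markers (median -1.53) at least 2-fold lower. Their part in the blood values was not tested. These are single arrays, and none of the differences has a replicate check.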

How the data were processed

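RNA of 6 lung and 2 blood samples was hybridised to 1-colour Agilent arrays, 1 array per sample. The authors deposited the scanner output of Agilent Feature Extraction 10.5.1.1, with a background-subtracted intensity for each spot, and a table of normalized log2 values, which the authors had quantile-normalized. The array methods name Trizol for RNA extraction, while a blood kit is named elsewhere for blood.

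Spots of a probe were averaged after dropping those marked as outliers, quantile-normalized on the log2 scale, and kept where well above background on at least 3 of 6 lung arrays. The lung contrast was fitted in limma 3.58.1 (R 4.3.3), with Benjamini-Hochberg adjustment over all probes tested. A call needed a fold of at least 2 and an adjusted p of at most 0.05. A probe needed 2 unmarked values per group. Where a group was not above background, a bound is given as "at least N-fold". For each list the rule named up to 3 called genes in each direction, and other genes named were chosen after their values were seen. The member genes and lists were chosen with earlier results of these data known. Alternatives were another scaling, background correction, floor, filter, the authors' log2 values, marked spots kept, the methods' t-tests, blocks for replicate and scan, near-identical arrays counted once, and each array left out. Normexp was run on the median signal. The code was tested on simulated data. Promoter windows were matched by symbol for 6 of the genes described. Some results are not reported here.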

Additional observations from a re-analysis of the deposited data

How the results depend on the processing

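Over all probes, 1683 were called higher in tumor and 1929 lower. With normexp these were 967 and 1256, with near-identical arrays counted once 778 and 976, and 1090 were higher with the methods' paired t-test; leaving out 1 array gave 1470 to 1683 and 1712 to 2062. An alternative chosen after seeing the data, near-identical arrays counted once with marked spots kept, called 1090 higher. Of the pathway genes, 17 were higher, 26 with the authors' log2 values and 11 with near-identical arrays counted once, and 15 to 18 with 1 array left out. The Fgg difference of 0.75 was 0.68 with the 75th percentile shift, 0.92 with quantile normalization over 8 arrays, 0.96 with the authors' values, 0.82 with scan as a block, and 0.71 to 0.78 with 1 array left out. In blood, normexp gave 20 pathway genes higher in place of 35 and 9 lower in place of 19. The replicate block gave 1614 and 1945 probes and 17 and 28 pathway genes. The labels call the tissues matched but do not say that equal numbers mark the same rat, so the numbers were not taken as pairs. Deviations of same-numbered arrays correlated across probes at 0.143, -0.0406 and 0.160, and those of differently numbered arrays at -0.19 to 0.140. As the normal arrays differ by about the spot noise, these values cannot show whether pairs exist. No difference named for a member in lung changed sign under the alternatives run. The cause of these shifts was not tested. Dim signals limit Fga and Mug1 in tumor and most members in blood.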
